A study of Homo sapiens with 4 samples.

Results

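The collagens, laminins and integrins are the genes for the fibers and sheets of the extracellular matrix and for the receptors through which cells hold on to them. They were taken from the gene table by symbol, as every collagen, laminin and integrin alpha or beta chain that had a row there. PXDN, FN1, LOX, LOXL1, LOXL2, HSPG2 and AGRN were taken with them. The 63 genes found, of 22637 in the table, were 26 collagen, 11 laminin, 13 integrin alpha and 6 integrin beta chains and 7 other matrix genes. Other symbols of these families, such as COL4A1, COL1A2, ITGA4, NID1 and LOXL4, had no row under those symbols and could not be analysed. RNA was sequenced from 4 human prostatic adenocarcinoma lines with 1 library per line, all of them labelled untreated. LNCaP is the castration-sensitive parental line of LN-OlapR, and 2B-OlapR was raised in the same way from C4-2B, a castration-resistant descendant of LNCaP. Both resistant lines had been selected by long exposure to rising doses of olaparib, an inhibitor of the DNA repair enzyme PARP, and all cells were plated without the selecting drug before RNA isolation. Each resistant line stands for 1 selection from its parent, and the comparisons of LN-OlapR with LNCaP (LN pair) and of 2B-OlapR with C4-2B (2B pair) ask how the lines differ after that selection. With 1 library per line no difference has a replicate check, so no test was run, and every interval given is a 95% interval of counting error only.

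Collagens are trimers of alpha chains. Fibrillar collagens such as types I, III and V form cables, type IV collagen forms the network of the basement membrane, and the FACIT collagens, such as types IX and XII, sit on the surface of fibrils. Laminins are heterotrimers of an alpha, a beta and a gamma chain that polymerize into the other network of the basement membrane, where perlecan (HSPG2) and agrin (AGRN) are heparan sulfate proteoglycans. Lysyl oxidases (LOX, LOXL1, LOXL2) cross-link collagen and elastin, and peroxidasin (PXDN) forms the sulfilimine bonds that join type IV collagen molecules. Integrins pair 1 alpha with 1 beta chain, and the pair sets the ligand, which is laminin, collagen or fibronectin for most of the chains measured here. Prostate luminal cells, which LNCaP resembles, normally rest on basal cells and a basement membrane.

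The starts of 3 genes are shown: COL12A1, PXDN and COL4A5. COL12A1 and PXDN are the collagen and the cross-linking enzyme that differed most in both pairs, and the start of COL4A5 faces that of COL4A6. They were chosen with the ratios known, and a link of their letters to the levels was not tested. Each line gives the 250 bases before the RefSeq gene start on the GRCh38.p14 build, read 5′ to 3′ on the strand of the gene. Capitals mark matches, on either strand, of the CCAAT box or of the GC box, which is spelled GGGCGG here.
COL12A1, minus strand, chr6:75206054-75206303: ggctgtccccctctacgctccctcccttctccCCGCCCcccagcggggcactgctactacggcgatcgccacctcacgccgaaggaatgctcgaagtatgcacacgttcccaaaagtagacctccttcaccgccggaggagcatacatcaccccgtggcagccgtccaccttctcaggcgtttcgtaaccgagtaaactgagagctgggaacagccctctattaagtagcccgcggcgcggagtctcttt
PXDN, minus strand, chr2:1744516-1744765: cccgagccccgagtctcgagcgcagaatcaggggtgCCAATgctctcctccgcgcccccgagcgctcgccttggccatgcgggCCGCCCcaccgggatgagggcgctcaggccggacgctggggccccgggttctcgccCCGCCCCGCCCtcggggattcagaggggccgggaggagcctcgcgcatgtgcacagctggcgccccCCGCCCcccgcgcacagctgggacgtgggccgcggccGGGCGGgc
COL4A5, plus strand, chrX:108439588-108439837: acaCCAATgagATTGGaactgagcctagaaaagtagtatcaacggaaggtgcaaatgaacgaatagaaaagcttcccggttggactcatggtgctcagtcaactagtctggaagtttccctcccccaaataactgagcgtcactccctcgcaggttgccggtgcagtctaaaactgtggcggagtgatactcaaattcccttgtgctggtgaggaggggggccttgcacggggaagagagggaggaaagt
The COL12A1 window held 1 GC box and a GC content of 61.2%. The PXDN window was richer in GC, at 78.4%, with 5 GC boxes, a pair of them overlapping, and 1 CCAAT box. In GENCODE release 29 PXDN starts further upstream, at 1744852, so by that annotation this window lies inside the gene. The COL4A5 window, at 51.2% GC, held no GC box and 2 CCAAT boxes on opposite strands. COL4A5 and COL4A6 are transcribed away from each other from starts 347 bp apart in the GENCODE release 29 annotation, and the first 121 bases of the COL4A5 window also lie in the window before COL4A6, so both genes have the same 2 CCAAT boxes there. Among the 47 genes of the set with a window, 27 (57.4%) held a GC box on either strand, against 42.3% of all 27305 windows, and 11 (23.4%) held CCAAT, against 33.0%. TATAAA was present in 5 of the 47 (10.6%), against 11.1% of all windows, and TGANTCA, the letters of an AP-1 site, in 1 (2.13%), against 6.6%. These matches describe letters and not binding.

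The libraries held between 19950537 and 26394267 counts. Levels are given as normalized CPM, in which the effective library sizes come from TMM scaling, and 3 counts, taken here as the limit for a count of 0, correspond to 0.112 to 0.147 normalized CPM. Of the 63 genes, 44 were above 3 counts in every library. The sum over the set ran from 2066 normalized CPM in LNCaP to 2472 in C4-2B. All 10 prostate luminal markers listed were at 1 normalized CPM or more in every library, as the labelled cell type has them. Markers of other cells were low: the 2 basal markers measured summed to at most 0.90 normalized CPM, the 5 stromal markers to between 8.06 and 15.8, the 2 leukocyte markers to between 0.67 and 5.36 and the 1 endothelial marker to between 2.61 and 12.2. All libraries were from cultured lines, and a link of these marker levels to the matrix genes was not tested.

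To compare genes with one another, counts were divided by the length of the longest annotated transcript and scaled to the same total in each library (TPM scale), here called the length-scaled level. In LNCaP the highest of the set was ITGB1, the beta chain shared by most integrins, at 205 TPM, followed by LAMC1, the common laminin gamma chain, at 90.0. LN-OlapR had the same genes on top, ITGB1 at 125.8 and LAMC1 at 113.8, with FN1, fibronectin, at 95.7. In C4-2B the order was led by FN1 at 170.7, ahead of ITGB1 at 130.9 and LAMC1 at 88.6. In 2B-OlapR FN1 stood at 161.7, LAMC1 at 151.4 and ITGB1 at 96.8. COL6A1, the alpha 1 chain of the beaded type VI collagen, was the highest collagen in all 4 lines, at 55.1, 63.1, 71.0 and 59.5 TPM in LNCaP, LN-OlapR, C4-2B and 2B-OlapR. The 5 highest genes also included LAMB2 in LNCaP (54.6) and LAMA3 in LNCaP (48.9) and 2B-OlapR (49.7), and AGRN in LN-OlapR (48.8) and C4-2B (76.3). The order at the top depends on the length used: with the union of all exons LAMC1 came first in LN-OlapR (134) and 2B-OlapR (183).

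For each pair, genes were compared when both libraries together averaged 1 normalized CPM or more, and a gene was called higher or lower when the libraries differed at least 2-fold. In each pair 37 of the 63 genes passed that level and 26 did not. In the LN pair 6 genes (16.2% of the 37) were higher in LN-OlapR, against 4.63% of all genes, and 7 (18.9%) were lower, against 4.84%. The median log2 ratio of the 37 was 0.27, with 17 genes below 0 and 20 above, while the median over all genes was -0.004. In the 2B pair 1 gene (2.7%) was higher in 2B-OlapR, against 4.43% of all genes, and 14 (37.8%) were lower, against 5.64%. There the median was -0.59, with 28 of the 37 genes below 0, while the median over all genes was 0.00. Beside these lower matrix genes, VWF, the von Willebrand factor, had 12.2 normalized CPM in the parent and 2.61 in 2B-OlapR (log2 ratio -2.21). It was the 1 endothelial marker measured. The stromal markers summed to 9.19 and 8.06 and the leukocyte markers to 4.59 and 2.75. Both libraries were from cultured lines, and a link of these marker levels to the matrix genes of the 2B pair was not tested. COL12A1, with 0 counts in C4-2B, lies above that median at any value its bound allows. Some of the calls were of low genes, and 4 of the 13 calls in the LN pair and 5 of the 15 in the 2B pair had 1 library under 1 normalized CPM. With the required average raised to 10 normalized CPM, 22 of the set remained in each pair. Of these, 2 were higher in LN-OlapR (FN1 and COL26A1) and 3 lower (PXDN, ITGA5 and LAMB2), where 1.93% and 1.89% of all such genes were higher and lower. In 2B-OlapR none was higher and 7 were lower (LAMC3, LAMB1, COL1A1, LOX, HSPG2, ITGA5 and LAMB2), where the shares of all such genes were 1.63% and 2.56%.

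**Figure D1:**
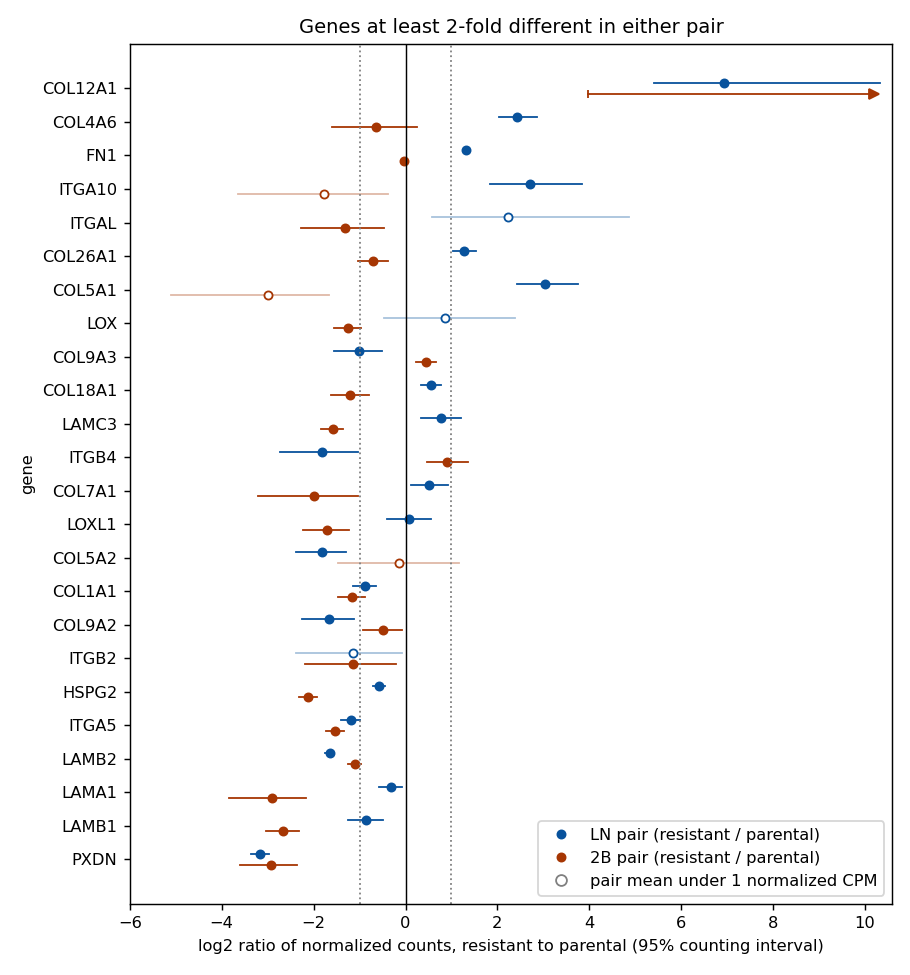
Log2 ratio of normalized counts, resistant to parental library, for the 24 genes called in either pair, with 95% counting intervals; open points are pairs with a mean under 1 normalized CPM, dotted lines mark 2-fold, and the arrow for COL12A1 starts at the lower bound of its ratio to 0 counts. PXDN, LAMB2 and ITGA5 lie left of the 2-fold line in both pairs and COL12A1 lies right of it in both.

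The 2 pairs share no library, and 33 genes of the set were compared in both. Of them 1 was at least 2-fold higher in both resistant lines, COL12A1, where 0.842% of the 14602 genes compared in both were, and 3 were lower in both, PXDN, ITGA5 and LAMB2, where 1.1% were. None was called in opposite directions, where 0.849% of all such genes were. Leaving size aside, 12 of the 33 (36.4%) had a lower level in both resistant lines, against 29.1% of all such genes, and 5 (15.2%) a higher one, against 28.5%. C4-2B descends from LNCaP, so the pairs are not independent backgrounds.

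PXDN had 101 and 11.3 normalized CPM in LNCaP and LN-OlapR and 9.72 and 1.25 in C4-2B and 2B-OlapR. The parental LNCaP library was far above the other libraries, and each resistant line was below its own parent. LN-OlapR was 8.96-fold below LNCaP (log2 ratio -3.16, interval -3.35 to -2.98) and 2B-OlapR 7.62-fold below C4-2B (-2.93, -3.60 to -2.36). The log2 ratios of the pairs differed by 0.23, with a counting interval of -0.38 to 0.85, which includes 0. The counts behind these values were 2719, 263, 199 and 26. In GENCODE release 29 on GRCh38, PXDN lies on chromosome 2 from 1631887 to 1744852 and COL12A1 on chromosome 6 from 75084326 to 75206051, both on the minus strand. LAMB2 lies on the minus strand of chromosome 3 from 49121114 to 49133118 and ITGA5 on that of chromosome 12 from 54395261 to 54419460.

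LAMB2, the beta 2 laminin chain, had 134 and 42.9 normalized CPM in LNCaP and LN-OlapR and 63.2 and 29.5 in C4-2B and 2B-OlapR. ITGA5, the alpha chain of the fibronectin receptor, had 27.8, 12.1, 43.2 and 14.9 in the same order. In both genes each resistant library was below both parental ones. LAMB2 was 3.13-fold lower in LN-OlapR (log2 ratio -1.65, -1.75 to -1.55) and 2.14-fold lower in 2B-OlapR (-1.10, -1.24 to -0.96). ITGA5 was 2.29-fold lower in LN-OlapR (-1.19, -1.40 to -0.99) and 2.89-fold lower in 2B-OlapR (-1.53, -1.73 to -1.35). The intervals of LAMB2 in the 2B pair and of ITGA5 in the LN pair reach inside the 2-fold limit.

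COL12A1, type XII collagen, was higher in both resistant lines. It had 2 and 268 counts in LNCaP and LN-OlapR and 0 and 48 in C4-2B and 2B-OlapR, that is 0.07, 11.5, 0.00 and 2.32 normalized CPM. Both parental libraries were at or under 3 counts and both resistant libraries were above. LN-OlapR was 122-fold above LNCaP, with a counting interval of 42.3 to 1282 that rests on 2 counts. Against 3 counts in C4-2B, 2B-OlapR was at least 15.8-fold higher, and the lower end of the counting interval of the ratio was 12.4-fold.

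**Figure D2:**
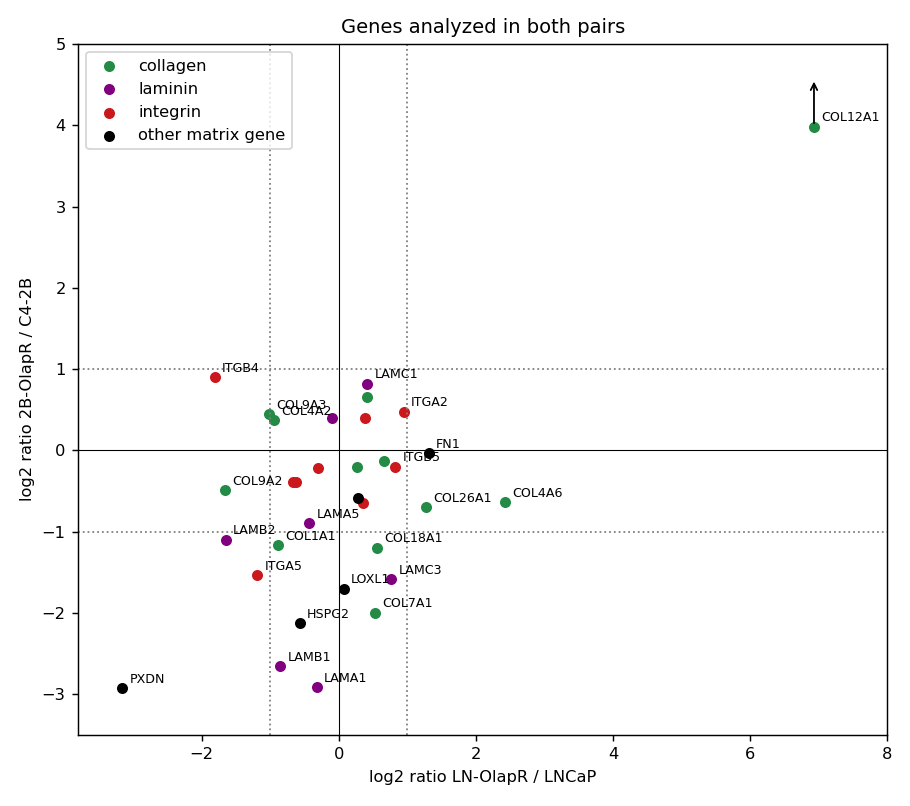
Log2 ratio in the 2B pair against that in the LN pair for the 33 genes compared in both, colored by family, with dotted lines at 2-fold and COL12A1 drawn at the lower bound of its ratio in the 2B pair. COL12A1 stands alone at the upper right and PXDN at the lower left, LAMA1, LAMB1, HSPG2, COL7A1 and LAMC3 are below the lower 2-fold line only in the 2B pair, and COL4A6, COL26A1 and FN1 are beyond the right line only in the LN pair.

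Among the laminins 7 of 11 chains were compared in each pair. In the LN pair 1 was lower, LAMB2, and in the 2B pair 4 were lower, LAMA1, LAMB1, LAMC3 and LAMB2, with none higher in either. Of all genes compared, 4.84% were lower in the LN pair and 5.64% in the 2B pair, and 4.63% and 4.43% were higher. LAMA1, the alpha 1 chain of the embryonic laminin, had 12.4 and 9.90 normalized CPM in LNCaP and LN-OlapR and 5.62 and 0.72 in C4-2B and 2B-OlapR. The 2B-OlapR library was the low one, at 15 counts, and was 7.54-fold below C4-2B (log2 ratio -2.92, -3.84 to -2.18), while the LN pair stood at -0.32 (-0.57 to -0.08). LAMB1, the beta 1 chain, had 6.70, 3.69, 23.3 and 3.67 normalized CPM in the same order, with C4-2B the highest. It was 6.31-fold lower in 2B-OlapR (-2.66, -3.03 to -2.31) and stood at -0.86 (-1.25 to -0.48) in the LN pair. LAMC3, the gamma 3 chain, had 2.79, 4.76, 28.9 and 9.60, again highest in C4-2B, and was 3.01-fold lower in 2B-OlapR (-1.59, -1.83 to -1.36) beside 0.77 (0.33 to 1.21) in the LN pair. For these chains the interval of the difference between the pairs excluded 0, at -2.59 for LAMA1, -1.80 for LAMB1 and -2.35 for LAMC3 on the log2 scale, 2B minus LN. Those differences are between single libraries.

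The abundant laminin chains varied less. LAMC1 had 308 and 409.8 normalized CPM in LNCaP and LN-OlapR and 296 and 522 in C4-2B and 2B-OlapR, above its parent in both resistant lines but under 2-fold, at log2 ratios of 0.41 and 0.82. LAMA3, the alpha 3 chain of epithelial laminins, had 226, 210.5, 176 and 232, and LAMA5, the alpha 5 chain of mature basement membranes, had 100.1, 74.1, 166 and 89.0. LAMA5 just missed the limit in the 2B pair at -0.90. LAMB3, a beta chain that assembles with LAMA3, was close to the detection floor, at 2, 20, 14 and 21 counts. LAMA2 had 0, 1, 0 and 10 counts and LAMA4 had 0, 1, 18 and 16, and these chains were under the level for comparison in both pairs.

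Per length, the makeup of the chains differed between lines. LAMA3 made up 68.1% and 72.6% of the alpha chain level in LNCaP and LN-OlapR and 52.1% and 73.0% in C4-2B and 2B-OlapR, and LAMA5 made up 28.1%, 23.8%, 45.7% and 26.2%. Among beta chains LAMB2 held 95.3%, 90.0%, 72.7% and 85.6%, and LAMB1 held 4.67%, 7.61%, 26.3% and 10.5%. LAMC1 was nearly the sole gamma chain, at 98.9%, 98.5%, 88.8% and 97.5%. C4-2B stood apart from the other lines in all the chain classes, with more LAMA5, LAMB1 and LAMC3 in its laminin mRNA. These are shares of length-scaled levels rather than of counts, so no counting interval is attached.

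**Figure D3:**
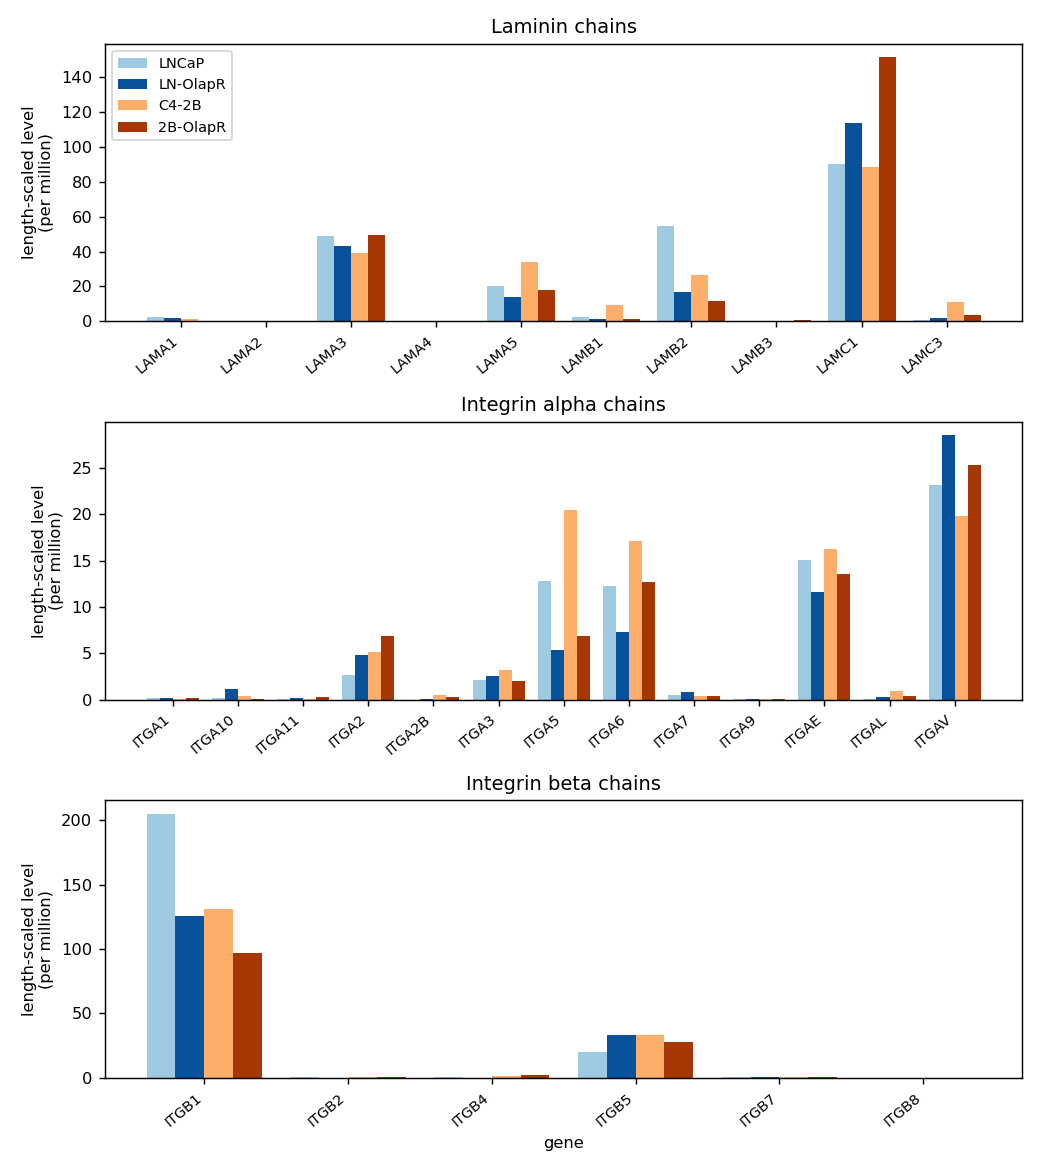
Length-scaled level (TPM scale) of laminin, integrin alpha and integrin beta chains in the 4 libraries, as bars from 0 with 1 library per bar and no error bar. LAMC1, LAMA3, ITGAV and ITGB1 lead their classes in most lines, LAMB2 is highest in LNCaP and ITGA5 is lower in both resistant lines than in their parents.

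The fibrillar collagens were low. COL1A1, the alpha 1 chain of type I collagen, had 15.2 and 8.23 normalized CPM in LNCaP and LN-OlapR and 16.1 and 7.14 in C4-2B and 2B-OlapR, lower in each resistant line than in its parent. It was 2.25-fold lower in 2B-OlapR (log2 ratio -1.17, -1.46 to -0.89) and under the limit in the LN pair at -0.88 (-1.14 to -0.63). COL5A1, which regulates the width of type I fibrils, had 0.86, 7.12, 1.71 and 0.19 normalized CPM, and only LN-OlapR was high. It was 8.15-fold higher there (3.03, 2.42 to 3.75). In the 2B pair COL5A1 had 35 and 4 counts, below the level for comparison, with 2B-OlapR 7.98-fold lower (log2 interval -5.10 to -1.66). Its partner chain COL5A2 had 5.62, 1.59, 0.59 and 0.53, highest in LNCaP, and was 3.51-fold lower in LN-OlapR (-1.81, -2.38 to -1.30), so the chains of type V collagen differed in opposite directions in the LN pair. COL3A1, type III collagen, had 29, 2, 3 and 1 counts and was above 3 counts in LNCaP alone.

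Of the type IV collagen chains COL4A5, which with COL4A6 forms a network in some epithelial basement membranes, was the highest. It had 80.4 and 126 normalized CPM in LNCaP and LN-OlapR and 27.9 and 25.5 in C4-2B and 2B-OlapR. COL4A6 had 2.34, 12.7, 1.37 and 0.87, and so LN-OlapR was the highest library for both genes of the pair with facing starts. COL4A6 was 5.38-fold higher in LN-OlapR (log2 ratio 2.43, 2.04 to 2.85), whereas COL4A5 stood at 0.65 (0.57 to 0.73). In the 2B pair COL4A5 stood at -0.13 (-0.30 to 0.04) and COL4A6 at -0.64 (-1.60 to 0.25), both with intervals that include 0. Per length, the ratio of COL4A5 to COL4A6 was 35.7 and 10.4 in LNCaP and LN-OlapR and 21.2 and 30.5 in C4-2B and 2B-OlapR. COL4A2 had 2.01, 1.03, 7.23 and 9.36 normalized CPM, higher in both lines of the C4-2B background, and stood at -0.95 in the LN pair and 0.37 in the 2B pair. COL4A3 had 10, 2, 1 and 10 counts and COL4A4 had 4, 6, 1 and 12, and these genes, with starts 112 bp apart, were under the level for comparison.

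COL6A1 had 101 and 122 normalized CPM in LNCaP and LN-OlapR and 127 and 110.2 in C4-2B and 2B-OlapR, and COL6A2, its partner chain, had 32.1, 42.8, 19.8 and 31.1. Neither was called in either pair. COL7A1, which anchors the basement membrane to the matrix beneath, had 3.61, 5.19, 2.00 and 0.48, and was 4.00-fold lower in 2B-OlapR (log2 interval -3.22 to -1.03) on 41 and 10 counts. COL18A1, a basement membrane collagen whose end fragment is endostatin, had 11.2, 16.5, 8.01 and 3.47, and was 2.30-fold lower in 2B-OlapR (-1.20, -1.63 to -0.80) with 0.55 (0.33 to 0.77) in the LN pair. For both, 2B-OlapR was the lowest library and LN-OlapR the highest. COL26A1, a short collagen described in testis and ovary, had 7.33, 17.8, 9.97 and 6.13 and was 2.42-fold higher in LN-OlapR (1.28, 1.03 to 1.53). The type IX chains were lower in LN-OlapR. COL9A2 had 4.80, 1.50, 5.72 and 4.05 normalized CPM and was 3.17-fold lower there (-1.66, -2.26 to -1.13). COL9A3 had 4.09, 2.01, 15.2 and 20.8, was 2.02-fold lower in LN-OlapR (-1.01, -1.55 to -0.52), the call nearest the limit, and stood at 0.44 in the 2B pair. COL23A1, a transmembrane collagen, had 21, 10, 12 and 0 counts, and against 3 counts 2B-OlapR was at least 4.05-fold below C4-2B, where the counting interval of the log2 ratio ended at -1.49. The other 8 collagens reached at most 1.76 normalized CPM, the level of COL16A1 in C4-2B.

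Of the other matrix proteins, fibronectin (FN1) had 161 and 401 normalized CPM in LNCaP and LN-OlapR and 662 and 648 in C4-2B and 2B-OlapR. LNCaP was the low library. FN1 was 2.48-fold higher in LN-OlapR (log2 ratio 1.31, 1.26 to 1.36) and stood at -0.03 (-0.07 to 0.00) in the 2B pair. HSPG2 had 50.2, 33.8, 54.3 and 12.5, with 2B-OlapR the lowest. It was 4.36-fold lower in 2B-OlapR (-2.12, -2.33 to -1.93) and stood at -0.57 (-0.70 to -0.44) in the LN pair. AGRN had 135, 165, 239 and 159.6, at 0.29 in the LN pair and -0.58 in the 2B pair. Among the cross-linking enzymes, LOX was lower in both lines of the LNCaP background than in either line of the C4-2B background. LOX had 8, 13, 332 and 140 counts, that is 0.30, 0.56, 16.2 and 6.76 normalized CPM, and was 2.40-fold lower in 2B-OlapR (-1.26, -1.56 to -0.97). LOXL1 had 2.98, 3.13, 7.13 and 2.17 normalized CPM and was 3.26-fold lower in 2B-OlapR (-1.70, -2.23 to -1.22), with 0.07 (-0.41 to 0.55) in the LN pair. All 3 cross-linking genes of the set that were compared in the 2B pair, PXDN, LOX and LOXL1, were lower in 2B-OlapR, against 5.64% of all genes. LOXL3, a lysyl oxidase outside the set, went the other way there. It stood at 0.66 (0.01 to 1.34) on 33 and 53 counts and was not called. LOXL2 had at most 23 counts. The intervals of LOX, COL1A1 and COL18A1 in the 2B pair, and of COL9A3 in the LN pair, reach inside the 2-fold limit.

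Of the 13 integrin alpha chains, 8 were compared in the LN pair, with ITGA10 higher and ITGA5 lower, and in the 2B pair 7 were compared, with ITGA5 and ITGAL lower. ITGAV, the alpha chain of receptors for RGD motifs, had 70.5 and 91.5 normalized CPM in LNCaP and LN-OlapR and 59.0 and 77.8 in C4-2B and 2B-OlapR, at log2 ratios of 0.38 (0.29 to 0.47) and 0.40 (0.29 to 0.51). Both resistant lines were above their parents by nearly the same ratio, with a difference of 0.02 (-0.12 to 0.16) between the pairs. ITGA6, a laminin receptor chain, had 29.9, 18.8, 40.8 and 31.0, and stood at -0.67 and -0.39. ITGA2, a collagen receptor chain, had 8.93, 17.2, 17.0 and 23.6, at 0.95 (0.71 to 1.19), just under the limit, and 0.48. ITGA3, another laminin receptor chain, had 5.06, 6.47, 7.53 and 4.78, and ITGAE, which binds E-cadherin together with ITGB7, had 25.3, 20.5, 26.6 and 22.9. ITGA10, a collagen receptor chain, had 0.41, 2.79, 0.88 and 0.24 and was 6.54-fold higher in LN-OlapR (2.71, 1.83 to 3.84) on 11 and 65 counts. ITGAL, a leukocyte integrin chain, had 3, 14, 40 and 16 counts and was 2.49-fold lower in 2B-OlapR (-1.31, -2.28 to -0.47). Its partner ITGB2 had 26, 10, 31 and 14 counts and was 2.20-fold lower in 2B-OlapR (-1.14, -2.19 to -0.21). Both intervals reach inside the 2-fold limit, and the summed leukocyte markers were 4.59 and 2.75 normalized CPM in the parental and the resistant library of this pair. A link of these markers to the values of ITGAL and ITGB2 was not tested.

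Of the beta chains ITGB1 had 337 and 217 normalized CPM in LNCaP and LN-OlapR and 209.6 and 160.0 in C4-2B and 2B-OlapR. It was lower in each resistant line than in its parent without reaching 2-fold, at log2 ratios of -0.63 (-0.68 to -0.58) and -0.39 (-0.46 to -0.32). ITGB5, a partner of ITGAV, had 37.4, 66.2, 60.8 and 52.8, with LNCaP the lowest, at 0.82 in the LN pair and -0.20 in the 2B pair. ITGB4, the partner of ITGA6 in hemidesmosomes, had 2.46, 0.69, 3.23 and 6.03. It was 3.51-fold lower in LN-OlapR (-1.81, -2.73 to -1.04) and 1.86-fold higher in 2B-OlapR (0.90, 0.46 to 1.36), which left it under the limit, and the difference between the pairs was 2.71 (1.82 to 3.60). ITGB7 and ITGB8 had at most 21 and 6 counts. Per length, ITGB1 made up 90.5% and 78.7% of the beta chain level in LNCaP and LN-OlapR and 78.5% and 75.7% in C4-2B and 2B-OlapR, and ITGB5 made up 8.69%, 20.8%, 19.7% and 21.6%. Within the alpha chains ITGA5 made up 18.5%, 8.46%, 24.2% and 9.91%, and ITGAV 33.4%, 45.4%, 23.5% and 36.8%. In both backgrounds the resistant line had a smaller share of ITGA5 and a larger share of ITGAV than its parent. ITGA7 averaged just enough in the LN pair to be compared, at 0.84, and ITGA1, ITGA9, ITGA11 and ITGA2B had at most 28 counts in any library.

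The parental lines also differed. C4-2B and LNCaP are each 1 of the libraries of a pair, so this contrast shares libraries with both, and its values are given beside theirs without a comparison. Of 37 genes compared, 8 (21.6%) were higher in C4-2B, against 7.97% of all genes, and 5 (13.5%) were lower, against 7.2%. The median log2 ratio was 0.39, with 13 genes below 0 and 24 above, while the median over all genes was -0.017. The higher genes were LOX (51.0-fold, log2 ratio 5.67, with 8 counts in LNCaP), ITGAL (14.9-fold, interval 5.58 to 88.5, with 3 counts in LNCaP), LAMC3 (3.36), FN1 (2.04), COL9A3 (1.89), COL4A2 (1.84), LAMB1 (1.79) and LOXL1 (1.26). The lower genes were PXDN (10.4-fold, -3.38), COL5A2 (-3.21), COL4A5 (-1.53), LAMA1 (-1.14) and LAMB2 (-1.09).

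Genes that act with the matrix and the integrins were listed by hand. Of 25 collagen synthesis and processing enzymes measured, 18 were compared in the LN pair, with 1 higher, 2 lower and a median log2 ratio of 0.07, and 21 in the 2B pair, with 2 higher, 2 lower and a median of 0.09. COLGALT2, which adds galactose to collagen, was lower in both resistant lines, at 2.68 and 0.47 normalized CPM in LNCaP and LN-OlapR and 2.93 and 0.63 in C4-2B and 2B-OlapR. P3H3, a prolyl 3-hydroxylase family member, had 0.22, 0.00, 2.30 and 0.24 and was 8.74-fold lower in 2B-OlapR on 47 and 5 counts. ADAMTS3, which removes procollagen ends, had 2.83, 3.39, 5.62 and 17.9, with 2B-OlapR the highest, at a log2 ratio of 1.66. TLL2, a protease of the tolloid family, had 1.67, 1.76, 1.22 and 3.14, at 1.34 (0.67 to 2.09) in the 2B pair on 25 and 65 counts. That interval reaches inside the 2-fold limit. The medians of the list stayed near 0 although single enzymes differed.

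Of 24 genes of the integrin adhesion complex, 23 were compared in the LN pair (2 higher, 3 lower, median -0.11) and 22 in the 2B pair (1 higher, 3 lower, median -0.15). The shares of all genes higher and lower were 4.63% and 4.84% in the LN pair and 4.43% and 5.64% in the 2B pair. Most tensins link integrins to actin. TNS1 had 1.34 and 22.5 normalized CPM in LNCaP and LN-OlapR and 2.59 and 24.6 in C4-2B and 2B-OlapR, and was high in both resistant lines and low in both parents, at log2 ratios of 4.05 (3.58 to 4.60) and 3.23 (2.84 to 3.68). TNS3 had 9.41, 0.47, 0.39 and 0.48, and was high in LNCaP alone, at -4.26 in the LN pair. TNS4 had 0.86, 4.89, 3.86 and 1.54, higher in LN-OlapR (2.49) and lower in 2B-OlapR (-1.31). PARVA, the actin-binding parvin alpha, had 294 and 0 counts in LNCaP and LN-OlapR and 381 and 638 in C4-2B and 2B-OlapR, so that against 3 counts LN-OlapR was at least 85.0-fold below LNCaP, where the counting interval of the log2 ratio ended at -6.10. Its count of 0 stands beside the highest level of the gene in 2B-OlapR.

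Of 15 other matrix receptors, 14 were compared in each pair, with 3 higher and 2 lower in the LN pair (median -0.08) and 2 higher and 1 lower in the 2B pair (median 0.20). For these receptors and the proteases below, the shares of all genes higher and lower were 4.63% and 4.84% in the LN pair. In the 2B pair those shares were 4.43% and 5.64%. SDC2, syndecan 2, had 1.86 and 7.07 normalized CPM in LNCaP and LN-OlapR and 2.35 and 10.4 in C4-2B and 2B-OlapR. BCAM, a receptor of the laminin alpha 5 chain, had 44.7, 20.4, 17.6 and 6.71. SDC2 was therefore higher in both resistant lines, at log2 ratios of 1.92 and 2.13, and BCAM lower in both, at -1.13 and -1.39. SDC1, syndecan 1, was higher in LN-OlapR (1.82), and GPC6, glypican 6, was higher in 2B-OlapR (1.92). Of 15 matrix proteases and inhibitors, 10 were compared in the LN pair (1 higher, 2 lower, median -0.09) and 11 in the 2B pair (1 higher, 1 lower, median -0.10). HPSE, heparanase, which cuts heparan sulfate, had 10, 35, 43 and 158 counts and was higher in 2B-OlapR at 1.85 (1.37 to 2.38). MMP11, stromelysin 3, was lower in 2B-OlapR (-1.30), MMP13, collagenase 3, was higher in LN-OlapR (1.18, on 17 and 34 counts), and ADAMTS1 was lower there (-1.05).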

How the data were processed

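Stranded mRNA libraries were made from total RNA of the 4 lines. The authors deposited estimated counts per gene, not scaled between libraries, and the submitters' processing notes name STAR, Partek and the GRCh38 (hg38) build, while versions and annotation are not given in the sources used here. Of the values 46.2% were not whole, each gene summed to at least 10.0 over the libraries, and values were rounded to whole counts. TMM effective library sizes were obtained with edgeR 4.0.16 under R 4.3.3, and all later steps ran in Python 3.11.15 with numpy 2.4.6, pandas 2.3.3, SciPy 1.17.1 and matplotlib 3.10.9.

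Log2 ratios had a pseudocount of 0.5. A gene was compared at a mean of 1 normalized CPM or more over its 2 libraries and called at 2-fold. Intervals are exact binomial intervals of the ratio of 2 counts at the 95% level, those of the difference between pairs are normal intervals, and all cover counting error only. A count of 0 was set to 3 counts for bounds, which leave out the counting error of the other library. Lengths came from GENCODE release 29, which matched 94.5% of genes and all 63 of the set. Promoter windows are from RefSeq (GRCh38.p14).

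Named genes of the set were those called in either pair, the 5 highest per length in a library, the extremes of each group, integrin partners and facing genes, and genes with 20 or more counts in 1 library and 3 or fewer in another. From each list of related genes up to 4 called genes were named. Some genes under these rules are not reported here. The set and lists were chosen with earlier results of these data known. Alternatives were scaling by total counts, DESeq2 1.42.0 size factors or upper quartiles, a minimum mean of 0.1 or 10, a pseudocount of 2, unrounded values and intervals wholly past 2-fold. Length from the union of exons was added after seeing the data. Whether counting used strand is not given in the sources used here, so facing or overlapping genes could share reads.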

Additional observations from a re-analysis of the deposited data

How the results depend on the processing

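No paired analysis was possible because each line has 1 library and no replicate numbers, and no model over both backgrounds was fitted. With a minimum mean of 0.1 normalized CPM, the LN pair had 11 higher and 10 lower of 58 genes of the set (against 9.22% and 9.15% of all genes), the 2B pair 9 and 19 of 59 (against 9.05% and 10.3%) and C4-2B against LNCaP 14 and 10 of 57 (against 12.6% and 11.6%). With a minimum of 10, the LN pair had 2 higher and 3 lower genes, with 0 and 7 in the 2B pair, 3 and 3 in C4-2B against LNCaP, and 2 differed the same way in both pairs. Requiring the counting interval to lie wholly past 2-fold left 8 lower in the 2B pair, 3 lower in C4-2B against LNCaP and 2 shared by the pairs. Shares over all genes are not given here for this interval rule, so its counts have no background. At a minimum of 10 such shares are also missing for C4-2B against LNCaP and for the genes shared by the pairs. LOXL1 in the LN pair, at 0.07 and not called, went to -0.011 with total counts, and no other result changed sign. The median log2 ratio ran from 0.08 to 0.32 in the LN pair and from -0.63 to -0.30 in the 2B pair. COL9A3 lost its call in the LN pair with a pseudocount of 2 (-0.99), and COL4A2 gained one with total counts (-1.03). Scaling moved the median of all genes by at most -0.084. The difference between cultures of 1 line was not measured.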
